A study of Mus musculus with 16 samples.

Results

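The genes described here are 10 mouse reductases of carbonyl compounds and quinones: the carbonyl reductases Cbr1, Cbr2, Cbr3 and Cbr4, the quinone reductases Nqo1 and Nqo2, and the aldo-keto reductases Akr1a1, Akr1b3, Akr1b8 and Akr1c19. They were taken by symbol from a count table of 54392 genes, and all 10 passed the filter on low counts, which left 14321 genes to test. They were chosen by symbol around Cbr3, which was selected on its measured diet difference in these libraries, so their diet values are a description: no p-value is printed for them, and counts of calls stand only beside the share of all genes. The table comes from RNA-seq of colonocytes (the absorptive and secretory lining cells of the colon) of C57BL/6 mice, in a study of diet and ferroptosis, the form of cell death in which iron drives the peroxidation of membrane lipids. Mice ate corn oil with cellulose (9 libraries) or fish oil with pectin (7 libraries) for 3 weeks. There was no group on another diet. The labels give no other treatment or genotype, no sex and no age. Titles number the libraries of each diet as biological replicates, without stating outright that each came from its own mouse. The p-values below speak only of the variation among these libraries.

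Carbonyl reductases and aldo-keto reductases use NADPH to turn aldehydes and ketones into alcohols. Their substrates include reactive aldehydes left by the oxidation of polyunsaturated fatty acids, prostaglandins, sugars and many drugs. Quinone reductases convert quinones fully to hydroquinones and so avoid the radical intermediates that cycle with oxygen. Several of these genes are textbook targets of NRF2 (gene Nfe2l2), a transcription factor that KEAP1 holds low until electrophiles modify it, and that binds antioxidant response elements together with small MAF proteins. NQO1 is also known as a target of the aryl hydrocarbon receptor, AHR.

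Cbr1 and Cbr3 are neighbours. On GRCm38, Cbr1 (ENSMUSG00000051483.9) lies on chromosome 16 from 93605853 to 93610505 and Cbr3 (ENSMUSG00000022947.8) from 93683215 to 93690990, both on the plus strand. The gap between them is 72709 bases and holds 3 annotated genes, 1 of them protein-coding. Their coding sequences, each 831 bases long, were identical at 80.3% of 816 aligned bases. No stretch of 75 bases in either gene's transcripts occurred in another gene, so reads of the neighbouring copies can be told apart over that length. The bases before the RefSeq starts of both genes are shown to set the neighbouring copies side by side. For Cbr1 that start is the start of its principal coding transcript; the wider span above begins further upstream, with noncoding transcripts, so the window lies within it. Gsta3, a glutathione S-transferase gene, is shown with them because its level, once diet and name form were removed, varied most like that of Cbr3. Sequences are from RefSeq on GRCm38.p6, in lower case, with matches to TGACNNNGC (the core of an antioxidant response element) or GCGTG (the core of an AHR site) on either strand in capitals; CACGC is GCGTG on the minus strand.
Cbr3, chr16:93682969-93683218, plus strand: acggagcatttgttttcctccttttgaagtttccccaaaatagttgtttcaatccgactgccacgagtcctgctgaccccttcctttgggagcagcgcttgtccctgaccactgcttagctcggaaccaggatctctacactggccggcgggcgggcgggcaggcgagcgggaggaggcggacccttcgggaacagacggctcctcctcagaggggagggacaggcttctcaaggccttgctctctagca
Cbr1, chr16:93607587-93607836, plus strand: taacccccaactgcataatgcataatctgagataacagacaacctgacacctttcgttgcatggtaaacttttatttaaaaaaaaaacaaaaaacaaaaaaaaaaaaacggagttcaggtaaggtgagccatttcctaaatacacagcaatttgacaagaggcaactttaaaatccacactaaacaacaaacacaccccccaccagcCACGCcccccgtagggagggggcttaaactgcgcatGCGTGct
Gsta3, chr1:21240335-21240584, plus strand: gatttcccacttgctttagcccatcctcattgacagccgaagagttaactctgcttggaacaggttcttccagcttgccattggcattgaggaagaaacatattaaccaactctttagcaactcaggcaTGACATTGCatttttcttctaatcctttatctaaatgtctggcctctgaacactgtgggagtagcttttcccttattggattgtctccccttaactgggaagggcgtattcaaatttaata

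In these 250 bases Cbr3 held neither motif. Cbr1 held GCGTG on the plus strand at -7 to -3 and on the minus strand at -43 to -39, counted from its start. Gsta3 held TGACATTGC at -121 to -113. RefSeq windows that also include the first 50 transcribed bases were found for 9 of the 10 reductases. Among these, Akr1c19 held TGACTAAGC on the minus strand at 8 to 16 after its start, and GCGTG stood in Akr1b8 at -26 to -22 and in both windows of Nqo2, at -93 to -89 and -137 to -133. Neither motif was found in the windows of Cbr2, Cbr3, Cbr4, Nqo1 and Akr1a1. Over all 32851 such windows, 12.4% held TGACNNNGC and 32.4% held GCGTG. A match is a run of letters and no evidence of binding, and its absence concerns only this window.

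Libraries held 13996288 to 19512755 counts, and levels are given as CPM, in which reads are divided by a library size that TMM factors correct for composition. Library names began with GC in 5 libraries of each diet and not in the other 4 corn oil/cellulose and 2 fish oil/pectin libraries. The sources used here do not give the meaning of the prefix, so it was a term of the model. By Y-linked genes every library without the prefix was male, as were corn oil/cellulose 5 and 9 and fish oil/pectin 3 among those with it, whereas the other 7 were female. Epcam, an epithelial surface protein, was at 2057 to 2798 CPM in these libraries labelled as colonocytes, and 7 fibroblast markers summed to at most 5.10 CPM. In prefixed libraries 8 epithelial markers summed to 16350 to 17570 CPM with corn oil/cellulose and to 19950 to 24610 CPM with fish oil/pectin. Without the prefix these sums were 14210 to 14320 and 14290 to 14430 CPM. Summed markers of T and NK cells were at 46.7 to 91.8 CPM in corn oil/cellulose libraries with the prefix, at 17.9 to 36.2 in fish oil/pectin libraries with it, and at 15.0 to 21.4 in libraries without it. Hoxd13, a gene of the distal colon, was at 0.631 CPM in fish oil/pectin library 7 and at 23.9 to 100.5 CPM in all others.

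Cbr3 was the reductase with the largest diet difference of the 10. In corn oil/cellulose libraries with the prefix it was at 12.8, 6.05, 9.59, 12.5 and 13.2 CPM, and in those without it at 11.8, 15.8, 19.9 and 13.5 CPM. In fish oil/pectin libraries with the prefix it was at 24.9, 32.7, 32.9, 34.7 and 31.2 CPM, and in the 2 without it at 36.3 and 36.6 CPM. The lowest fish oil/pectin library lay above the highest corn oil/cellulose library, and the diets did not overlap in either name form. Means were 12.8 ± 3.84 CPM (SD, n = 9) and 32.8 ± 3.99 CPM (SD, n = 7), from 102 to 334 and from 418 to 663 reads. Adjusted for the name form, Cbr3 was 2.70-fold higher with fish oil/pectin, a log2 fold change of 1.43 ± 0.14 (SE). Over 36 other ways of fitting the data the log2 fold change lay between 1.16 and 1.78. In bulk RNA a change in the share of cells that express a gene and a change in RNA per cell cannot be told apart.

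**Figure D1:**
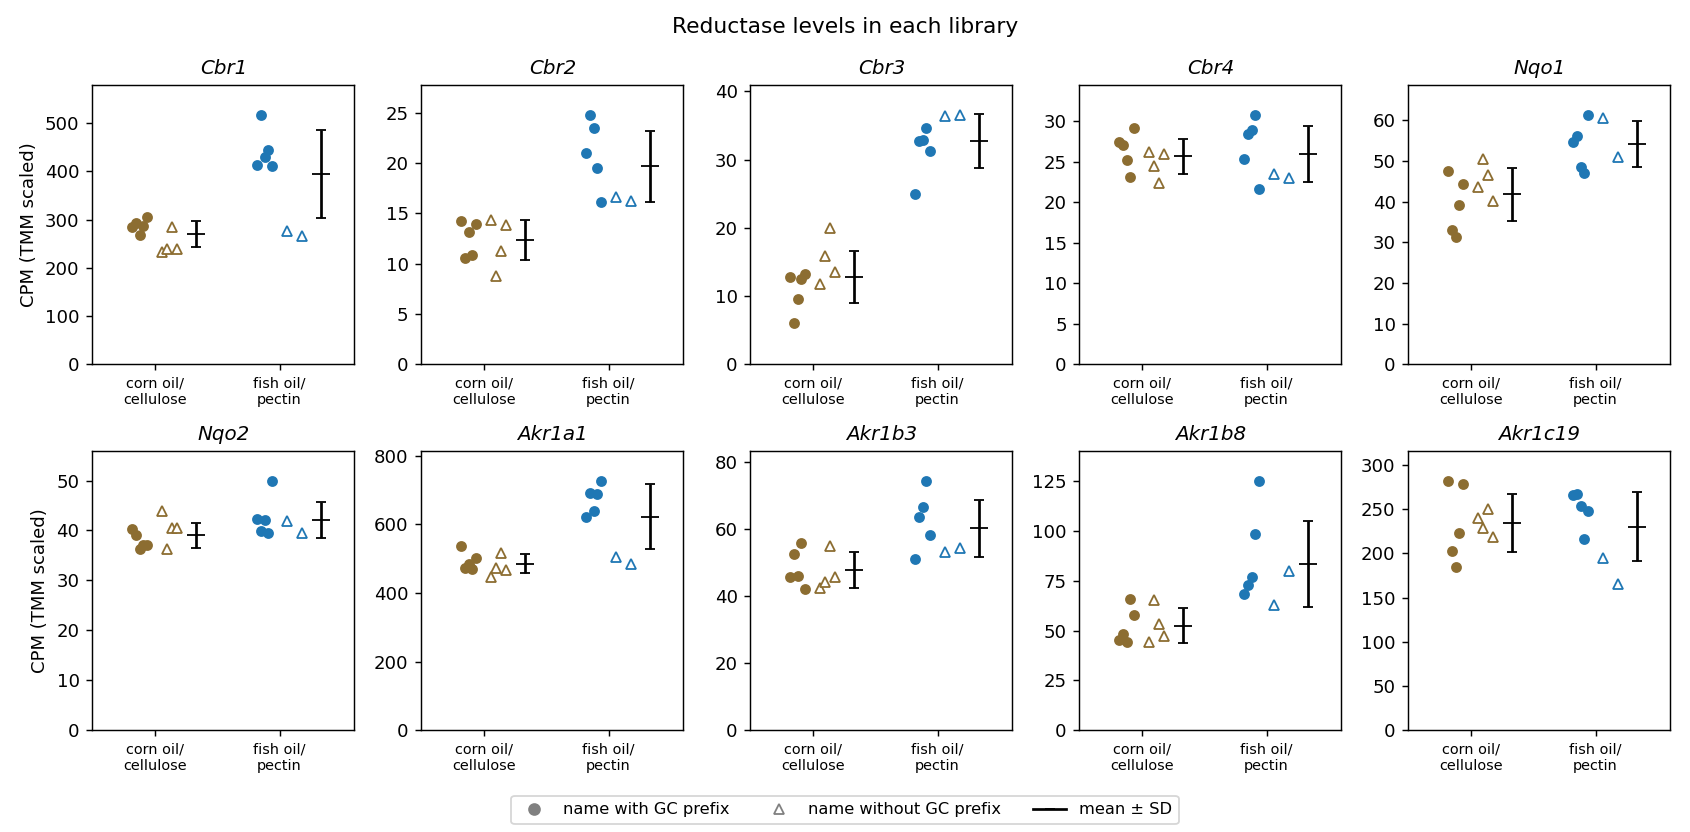
CPM of each reductase (vertical axes from 0, each gene on its own scale) in every library of the 2 diets; filled circles are libraries with the GC prefix, open triangles those without it, and bars are the mean ± SD. Cbr2 and Cbr3 were the genes whose diets did not overlap, while Cbr1 and Akr1a1 were high in the fish oil/pectin circles and not in the triangles.

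Cbr1, the abundant carbonyl reductase, which also reduces prostaglandins and quinones, showed another pattern. With the GC prefix it was at 284, 294, 268, 286 and 305 CPM with corn oil/cellulose (libraries 5 to 9) and at 413, 517, 429, 444 and 411 CPM with fish oil/pectin (libraries 3 to 7). Without the prefix it was at 233, 239, 284 and 239 CPM and at 277 and 266 CPM. All 5 prefixed fish oil/pectin libraries lay above every corn oil/cellulose library, whereas the 2 without the prefix lay inside the corn oil/cellulose range. The log2 fold change over both forms was 0.46 ± 0.08. The number of Cbr3 reads per 100 Cbr1 reads was 2.06 to 4.52 with corn oil/cellulose and 6.03 to 7.81 with fish oil/pectin in prefixed libraries, and 5.04 to 7.02 and 13.1 to 13.7 in those without it.

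Cbr2, a tetrameric carbonyl reductase best known from lung, was at low counts, 153 to 287 reads with corn oil/cellulose and 281 to 435 with fish oil/pectin. It ran from 8.80 to 14.4 CPM (median 13.2) and from 16.1 to 24.8 CPM (median 19.5), and the diets did not overlap. Its log2 fold change was 0.64 ± 0.12. Cbr2 is also expressed by resident macrophages. The macrophage list of 11 genes summed to 8.42 to 17.1 CPM with corn oil/cellulose and 7.29 to 16.8 CPM with fish oil/pectin. Cd163 was at 0 in every library and Adgre1 at most 0.179 CPM, while C1qa reached 7.08 CPM and Cd68 3.27 CPM. The part of macrophages in the Cbr2 value was not tested. Cbr4, part of the mitochondrial enzyme that reduces ketoacyl chains in fatty acid synthesis, ran from 22.4 to 29.1 CPM and from 21.7 to 30.8 CPM. These ranges overlap nearly in full, and the log2 fold change was -0.01 ± 0.08.

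Nqo1, the NAD(P)H quinone reductase that also returns ubiquinone and vitamin E quinone to their reduced forms, ran from 31.3 to 50.6 CPM (median 43.7) with corn oil/cellulose. With fish oil/pectin it ran from 46.9 to 61.4 CPM (median 54.6). In 5 of the 7 fish oil/pectin libraries it lay above the highest corn oil/cellulose library, and the log2 fold change was 0.40 ± 0.09. Nqo2, a related quinone reductase that uses dihydronicotinamide riboside in place of NADPH, ran from 36.3 to 43.9 CPM and from 39.5 to 49.9 CPM. Its highest value was fish oil/pectin library 7, the library with little Hoxd13, and the other 6 fish oil/pectin libraries were at 39.5 to 42.2 CPM. Its log2 fold change was 0.12 ± 0.06.

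Akr1a1, the aldehyde reductase that also serves vitamin C synthesis in mice, followed the pattern of Cbr1. With the GC prefix it was at 536, 472, 484, 471 and 502 CPM with corn oil/cellulose and at 623, 693, 638, 689 and 727 CPM with fish oil/pectin. Without the prefix it was at 448, 474, 516 and 467 CPM and at 504 and 485 CPM. The prefixed diets were separate and the unprefixed overlapped, with a log2 fold change of 0.32 ± 0.07 over both. Akr1b3, the mouse aldose reductase, which turns glucose into sorbitol and reduces lipid aldehydes, ran from 42.0 to 55.8 CPM (median 45.7) and from 51.1 to 74.3 CPM (median 58.2). The ranges overlapped, with 4 of 7 fish oil/pectin libraries above all corn oil/cellulose libraries and a log2 fold change of 0.31 ± 0.08.

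Akr1b8, an aldose reductase-like enzyme of the gut, ran from 44.1 to 65.7 CPM (median 48.4) with corn oil/cellulose. Fish oil/pectin libraries 1 to 7 were at 62.7, 80.1, 68.3, 73.0, 76.8, 98.4 and 125 CPM. All but library 1 lay above the corn oil/cellulose range, and libraries 6 and 7 were the highest of all. The log2 fold change was 0.65 ± 0.14. Libraries 6 and 7 were also the highest in Retnlb, at 301 and 345 CPM against 31.1 to 195 CPM elsewhere. Retnlb is a goblet cell gene that was listed here as a marker of the proximal colon. The part of cell type or colon region in the Akr1b8 value was not tested.

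Akr1c19, a member of the hydroxysteroid dehydrogenase branch of the family, ran from 185 to 282 CPM with corn oil/cellulose and from 166 to 267 CPM with fish oil/pectin. Its log2 fold change was -0.07 ± 0.10. Both fish oil/pectin libraries without the prefix, at 195 and 166 CPM, lay below the 4 matching corn oil/cellulose libraries, at 219 to 251 CPM. Among prefixed libraries the 3 male ones, at 266 to 282 CPM, stood near the top, and the 7 female ones ran from 185 to 267 CPM.

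Of the 10 reductases, 7 passed the threshold of adjusted p under 0.05 for diet, all higher with fish oil/pectin: Cbr1, Cbr2, Cbr3, Nqo1, Akr1a1, Akr1b3 and Akr1b8. Of all genes tested 41.7% passed, 21.7% in this direction; since the genes were chosen with this contrast known, nothing is read from their share. Their median log2 fold change was 0.36, against -0.004 over all genes. For 2 of the 10, Cbr2 and Cbr3, every fish oil/pectin library lay above every corn oil/cellulose library, which held for 2.35% of all genes; the reverse held for 0 of the 10 and 0.999% of all genes, so 3.35% did not overlap in either direction. Among prefixed libraries this held for Cbr1, Cbr2, Cbr3, Akr1a1 and Akr1b8 (15.2% of all genes), and among the others for Cbr2, Cbr3 and Nqo1 (18.1% of all genes). In the libraries without the prefix the diet value passed for 0 of the 10 within the joint edgeR fit, and for 0.0% of all genes, while 2385 genes had an unadjusted p under 0.05 there. Fitted alone, these libraries gave calls for 2 of the 10, Cbr3 (higher) and Akr1c19 (lower), and for 6.36% of all genes; nothing is read from this either. With a score of immune, stromal, endothelial and enteric nerve markers in the model 1 of the 10 passed, Cbr3, of 3 genes in all. Since Cbr3 was selected on this diet difference, nothing is read from that call. The T and NK cell markers in that score were lower with fish oil/pectin in the prefixed libraries. How the whole score moved with diet is not given here, and its part in the other diet values was not separated.

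Whether the diet difference was the same in both name forms was tested with an interaction term, a contrast other than the diet difference the genes were selected on. It passed for 2 of the 10 reductases, Cbr1 and Akr1a1, against 8.41% of all genes. For Cbr1 the diet log2 fold change was 0.62 ± 0.07 with the prefix and 0.13 ± 0.10 without it, a difference of 0.50 ± 0.12 (edgeR adjusted p = 0.0273). For Akr1a1 the values were 0.45 ± 0.06 and 0.05 ± 0.08, a difference of 0.40 ± 0.11 (edgeR adjusted p = 0.0336). Both calls were lost when fish oil/pectin library 1 (adjusted p = 0.0807 and 0.0849), library 2 (0.191 and 0.206) or corn oil/cellulose library 3 (0.0606 and 0.0719) was left out, and with scaling by total counts (0.0651 and 0.0889), which moved the median difference of all genes to -0.113. The Akr1a1 call was also lost on leaving out fish oil/pectin library 4 or corn oil/cellulose library 4, 6 or 8, with adjusted p from 0.0519 to 0.0546.

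For Cbr3 the diet log2 fold change was 1.53 ± 0.18 with the prefix and 1.26 ± 0.23 without it, and the difference of 0.27 ± 0.30 did not pass (edgeR adjusted p = 0.622). For the other 7 reductases the differences between forms ran from 0.13 (Cbr4) to 0.47 (Akr1c19), each with the larger value in prefixed libraries, and none passed. Akr1c19 had 0.09 ± 0.11 with the prefix and -0.38 ± 0.15 without it, a difference of 0.47 ± 0.18 (edgeR adjusted p = 0.111). These differences rest on 2 fish oil/pectin libraries without the prefix, and form and sex are partly joined.

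**Figure D2:**
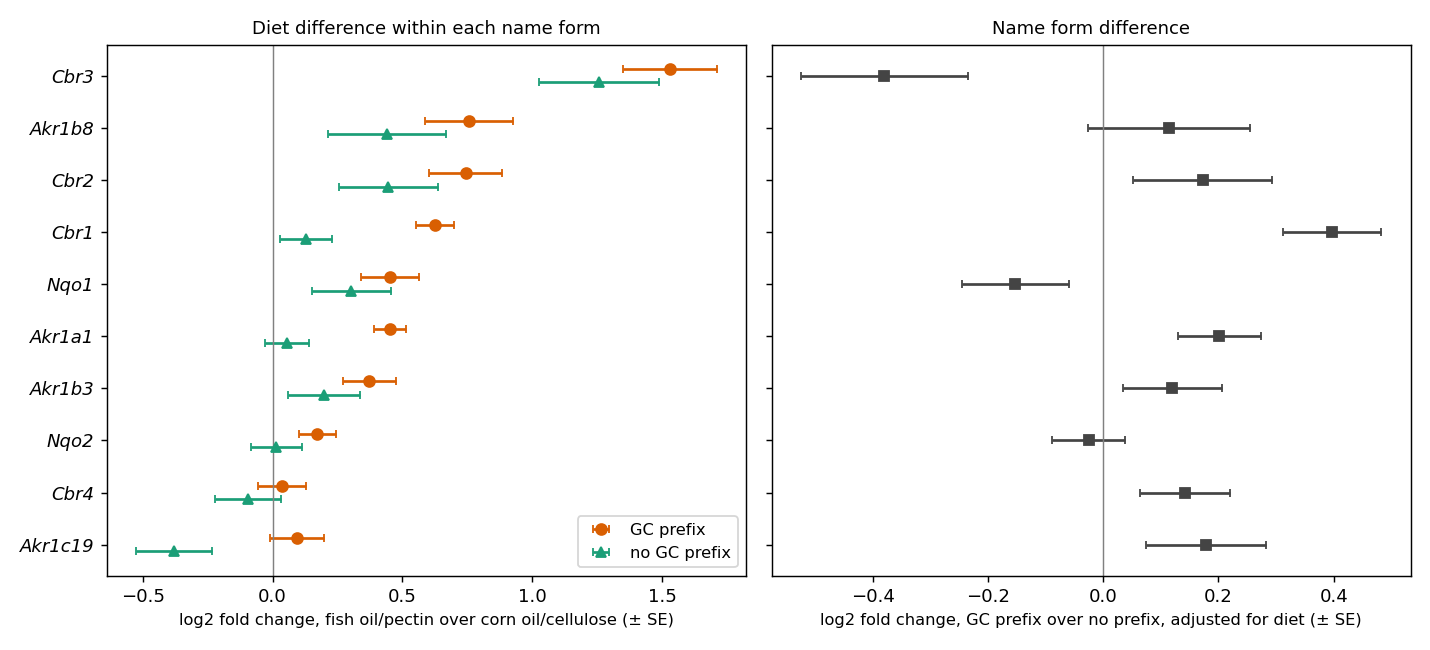
Left, diet log2 fold change (fish oil/pectin over corn oil/cellulose) of each reductase in libraries with the GC prefix (circles) and without it (triangles); right, the log2 difference between name forms (GC prefix over none) adjusted for diet; bars are SE. Cbr3 stood apart from 0 in both forms on the left and lay below 0 on the right, while Cbr1 and Akr1a1 lay near 0.13 and 0.05 without the prefix.

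The level itself also differed between name forms for 3 of the 10 reductases, against 40.5% of all genes (20.2% higher with the prefix and 20.3% lower), a share no higher than the background. Cbr1 was higher in libraries with the prefix by 0.40 ± 0.09 on the log2 scale (edgeR adjusted p = 0.00156), and this passed whichever library was left out. Akr1a1 was higher by 0.20 ± 0.07 (edgeR adjusted p = 0.0325). Cbr3 differed in the opposite direction, at -0.38 ± 0.15 (edgeR adjusted p = 0.0437). The call of Akr1a1 was lost in corn oil/cellulose libraries alone (0.05), with total count scaling (0.12), with the transcript length trend removed (0.10) and on leaving out fish oil/pectin library 1, fish oil/pectin library 2 or the first corn oil/cellulose library (0.15 to 0.20). The call of Cbr3 was lost in corn oil/cellulose libraries alone (-0.49, adjusted p = 0.142), in the libraries of the lower series of name numbers alone (-0.35), with limma voom (-0.36), and on leaving out any of fish oil/pectin libraries 1 to 3 and of corn oil/cellulose libraries 2, 3 and 7 (-0.41 to -0.28). The other 7 did not pass, with values from -0.15 (Nqo1) to 0.18 (Akr1c19). Sex could not be separated from form among libraries without the prefix, which were all male.

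Levels can be compared between genes only per length of transcript. Per kilobase of the principal transcript the order was Akr1a1, Cbr1, Akr1b8, Akr1c19, Akr1b3, Nqo1, Cbr3, Cbr2, Nqo2 and Cbr4. Where several principal transcripts were annotated the longest was taken. It had 5832 bases for Akr1c19, 4309 for Cbr4 and 3842 for Nqo2, against 1110 (Cbr2) to 1553 (Nqo1) for the others. The places of Akr1c19, Cbr4 and Nqo2 thus depend on these lengths. Akr1a1 was at 342 ± 19.5 CPM per kilobase (SD, n = 9) with corn oil/cellulose and 438 ± 66.5 (SD, n = 7) with fish oil/pectin, and lay above Cbr1, at 218 ± 21.7 and 318 ± 73.5, in all 16 libraries. Cbr1 in turn lay above Akr1b8, at 38.6 ± 6.46 and 61.5 ± 15.9, in all 16. The next neighbours were not set apart: Akr1b8 lay above Akr1c19 in 11 of 16 libraries and Akr1c19 above Akr1b3 in 8 of 16. Akr1b3 lay above Nqo1 in 14 of 16 and Cbr2 above Nqo2 in 13 of 16. Nqo1 lay above Cbr3 in all 16, and Nqo2, at 10.1 ± 0.664 and 10.97 ± 0.948, above Cbr4, at 5.96 ± 0.494 and 6.03 ± 0.807, in all 16.

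Cbr3 changed places with Cbr2. With corn oil/cellulose Cbr3 averaged 10.9 ± 3.28 CPM per kilobase (SD, n = 9) and Cbr2 11.1 ± 1.82, and Cbr3 was the higher in 3 of 9 libraries. With fish oil/pectin Cbr3 averaged 28.0 ± 3.41 (SD, n = 7) and Cbr2 17.7 ± 3.20, and Cbr3 was the higher in all 7. Akr1c19 went from rank 3 to rank 5 and Akr1b8 from rank 4 to rank 3. Akr1b3 fell to rank 9 when all annotated exons set the length, because its exons sum to 8384 bases against 1387 in the principal transcript. Over all annotated transcripts Akr1b3 has 8735 windows of 75 bases, of which 8.32% also occur in the pseudogenes Gm12138, Gm6644 or Gm6736. Cbr2 has 1323, of which 8.31% occur in Gm11771. The share within the principal transcript was not measured and may be larger for Akr1b3. Some reads of both genes could have been divided or dropped. Akr1a1, Cbr1 and Akr1c19 together made up 75.3% to 82.6% of the reads of the 10 genes in each library. The 10 genes summed to 1143 to 1336 CPM with corn oil/cellulose, and to 1589 to 1796 CPM in prefixed and 1218 and 1270 CPM in unprefixed fish oil/pectin libraries.

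**Figure D3:**
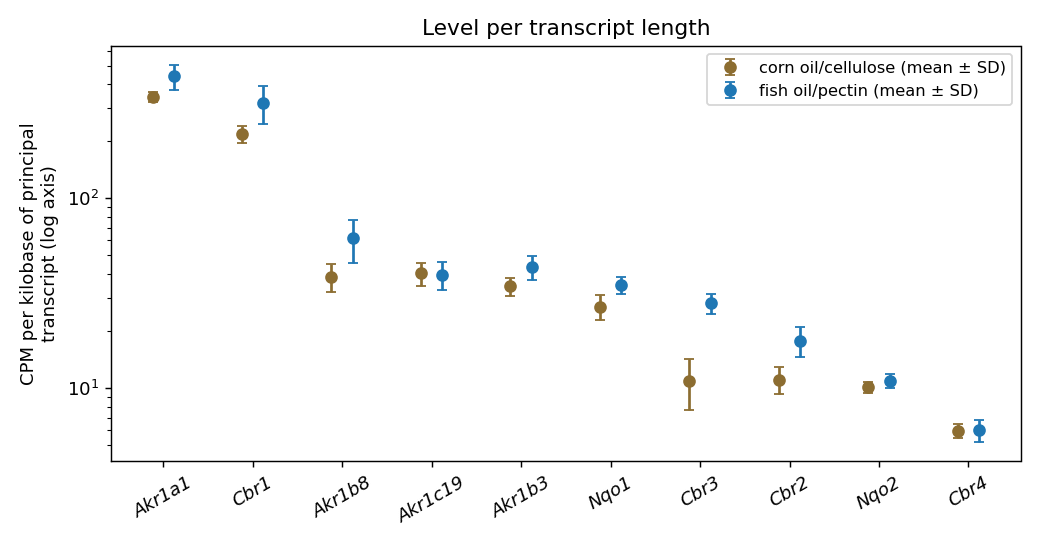
Mean CPM per kilobase of principal transcript ± SD (log axis) of each reductase by diet, 9 corn oil/cellulose and 7 fish oil/pectin libraries, in order of the level over all libraries. Akr1a1 and Cbr1 stood above the other 8, and Cbr3 was at 10.9 and 28.0.

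Whether the reductases varied together among libraries of 1 diet and name form was asked with correlations of log2 CPM residuals over the 16 libraries, with residuals permuted within diet and form, for all 45 pairs. None passed adjustment. The closest pair was Nqo1 and Akr1c19, with Pearson r = 0.84 (permutation p = 0.00331, adjusted p = 0.0968) and Spearman rho = 0.80 (permutation p = 0.00495, adjusted p = 0.111), and r = 0.73 without the 2 libraries with the most extreme Nqo1 residuals. Within prefixed libraries r was 0.88 and within the others 0.65. Cbr2 and Akr1b8 ran against each other, with r = -0.74 (permutation p = 0.0043, adjusted p = 0.0968), rho = -0.74 (permutation p = 0.00418, adjusted p = 0.111), r = -0.55 without the 2 most extreme, and r of -0.70 and -0.88 within forms. Cbr3 was closest to Akr1a1 (r = 0.60, permutation p = 0.0263, adjusted p = 0.368; rho = 0.61, permutation p = 0.0220, adjusted p = 0.329), with r = 0.58 without the 2 most extreme libraries and 0.48 and 0.94 within forms.

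Across the transcriptome, 11135 genes were ranked by Pearson r of residuals with those of Cbr3 over the 16 libraries, as a description without a test. Here residuals were taken after separate terms for diet and name form. Unlike those of the pairs above, they keep any difference of the diet effect between forms. These libraries share their preparation, and the list is the top of a long ranking. The 8 leading genes were Gsta3 (r = 0.91), Mfge8 (0.83), H3f3a (0.77), Sgsm3 (0.75), Pir (0.75), Gstm1 (0.75), Tnfsf13os (0.75) and Hebp2 (0.74). Gsta3 and Gstm1 encode glutathione S-transferases, Mfge8 a secreted protein that binds apoptotic cells, Pir the iron-binding nuclear protein pirin, H3f3a a replication-independent histone and Hebp2 a haem-binding protein. Of the 8, 3 also led with Spearman rho (Gsta3, Mfge8 and Gstm1). Without removing diet and form 5 of the 8 led, and Mfge8 came first (r = 0.95). That ranking also carries the diet difference on which Cbr3 was selected, so nothing is read from its overlap. Gsta3 went from a mean of 10.6 to 22.7 CPM, with a diet log2 fold change of 1.30 ± 0.18 (edgeR adjusted p = 0.000381), and Mfge8 was higher by 0.54. Glutathione S-transferases are a family of near copies, and the treatment of reads that match several of them is not stated in the labels.

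The genes that act with or beside these reductases were taken from lists. These lists were also chosen with earlier results of these data known, so their counts and medians are a description only. Of the 14 genes for NRF2, its regulators and its partners, 3 were higher with fish oil/pectin and 7 lower, with a median log2 fold change of -0.13, against 21.7% and 20.1% of all genes. Nfe2l2 itself was lower by a small amount, at -0.18 ± 0.07 (edgeR adjusted p = 0.0362), with means of 317 and 282 CPM. The related factor Nfe2l1 was at -0.17, and the partners Mafg, Maff and Mafk were at -0.23, -0.40 and -0.18. The repressors Bach1 and Bach2, which occupy the same elements, were at -0.29 and -0.82, the latter from 3.21 to 1.66 CPM. Bach1 was at -0.50 with the prefix and 0.08 without it, a difference of -0.58 (edgeR adjusted p = 0.0346). Keap1 was at 0.15 and Rbx1 of its ubiquitin ligase at 0.40, as was Dpp3, a KEAP1-binding peptidase, at 0.15. Cul3 (-0.05), Btrc (-0.09), Sqstm1 (0.09) and Nfe2l3 (0.08) did not pass. The calls of Nfe2l2, Mafk, Maff and Nfe2l1 were each lost under 17 to 24 of the 36 other settings, and those of Keap1, Bach1 and Dpp3 under 10 or 11. Bach2, which lymphocytes also express, was at -0.91 ± 0.33 with the prefix, where T and NK cell sums were lower with fish oil/pectin, and at -0.68 ± 0.41 without it, where those sums were at 15.0 to 20.9 CPM with corn oil/cellulose and 16.6 to 21.4 CPM with fish oil/pectin. The part of these cells in the Bach2 value was not tested.

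Of 40 other NRF2 targets tested, 25 were higher with fish oil/pectin and 2 lower, with a median of 0.28, beside 21.7% and 20.1% of all genes and a median of -0.004. The diet difference was not the same in both name forms for 9 of the 40, against 8.41% of all genes. By lowest p they were led by Gsta3, by Blvrb (0.62 ± 0.09), the biliverdin reductase, by Gstp1 (0.57 ± 0.09), another glutathione S-transferase, and by Prdx1 (0.53 ± 0.09), a peroxiredoxin. Without the prefix Blvrb was at 0.23 ± 0.10 and Gstp1 at 0.22 ± 0.10, against 0.81 ± 0.08 and 0.75 ± 0.08 with it. The 2 lower genes, named here after their values were seen, were Abcc1, an exporter of glutathione conjugates, and Ugt1a6a, a glucuronosyltransferase. Of 17 genes that supply NADPH, which carbonyl and aldo-keto reductases use, 10 were higher and 0 lower, beside the same shares of all genes. Their median was 0.28. They were led by Idh2 (0.48 ± 0.06) and Idh1 (0.28 ± 0.06), isocitrate dehydrogenases, G6pdx (0.33 ± 0.06), which opens the pentose phosphate pathway, and Pgls (0.43 ± 0.09), its next enzyme. G6pdx, Pgd, Me1 and Idh1 stand in both lists.

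Of 10 other aldo-keto reductases tested, 4 were higher and 1 lower, with a median of 0.18, beside 21.7% and 20.1% of all genes. The share called in either direction was near the 41.7% of all genes. Akr1c12 (0.41 ± 0.08), Akr7a5 (0.46 ± 0.09) and Akr1c13 (0.32 ± 0.07) were higher. Kcnab2, a potassium channel subunit of the family, was lower at -1.24 ± 0.37, with low means of 1.22 and 0.548 CPM. It was at -1.65 ± 0.37 with the prefix and 0.32 ± 0.71 without it, and its call was lost under 6 of 34 other settings. The fifth gene called, Akr1c18, is named after its values were seen. Of 44 other carbonyl and ketone reductases and related enzymes, 17 were higher and 3 lower, with a median of 0.11. The share called in either direction was again near the 41.7% of all genes, though more calls were higher than lower, beside 21.7% and 20.1%. They were led by Hsd17b10 (0.44), a mitochondrial hydroxyacyl dehydrogenase, Cyb5r3 (0.30), a cytochrome b5 reductase, Ptgr1 (0.53), a prostaglandin and alkenal reductase, and Hsd17b12 (0.33), of fatty acid elongation. The list also holds Tstd1, a sulfurtransferase that is no carbonyl reductase.

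Of 19 aldehyde and alcohol dehydrogenases, which oxidise aldehydes where the reductases reduce them, 7 were higher and 2 lower, with a median of 0.13. This stands beside 21.7% and 20.1% of all genes, and the share called in either direction was near 41.7%. Aldh9a1 (0.34), Aldh1a7 (0.51) and Aldh1b1 (0.30) were higher, and Aldh3a2, the fatty aldehyde dehydrogenase, was lower at -0.28. Of 7 genes tested for AHR and its targets, 1 was higher and 4 lower, with a median of -0.18, beside 21.7% and 20.1% of all genes. Ahr was at -0.40 ± 0.08 (edgeR adjusted p = 0.000828) and its partner Arnt at -0.29. Nfe2l2 and Ugt1a6a stand in this list too.

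**Figure D4:**
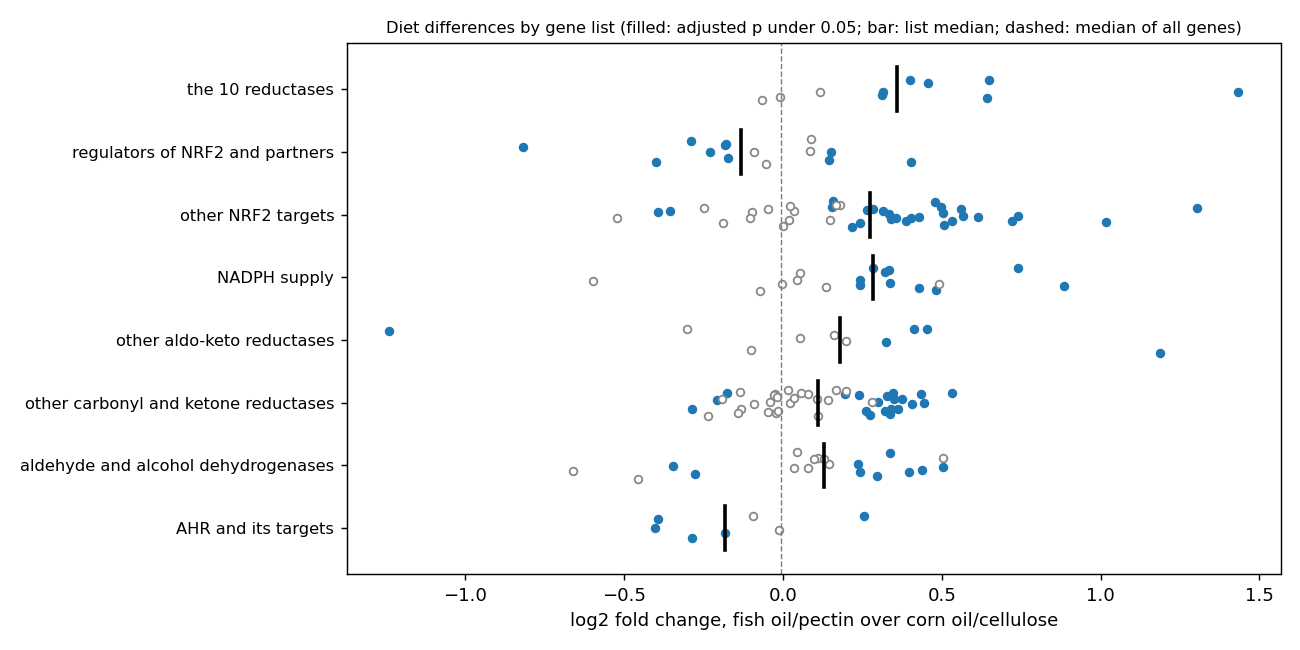
Diet log2 fold change of every tested gene of the 10 reductases and of each list; filled points had an edgeR adjusted p under 0.05, black bars are medians, and the dashed line is the median of all genes tested. Medians ran from -0.18 for AHR and its targets to 0.28 for NADPH supply among the lists, and the reductases had 0.36. The reductases were chosen with these values known, and the lists with earlier results of these data known.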

How the data were processed

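Colonocyte RNA was measured in 16 libraries, 9 from mice fed corn oil/cellulose and 7 fed fish oil/pectin, grouped by their titles. Per the labels' protocols, 200 ng of total RNA entered a stranded mRNA preparation. The authors deposited raw read counts per gene symbol, 1 column per library. Tools listed per the submitters' processing notes are HTSeq 0.11.1 and STAR 2.6.0a, with build GRCm38; for the counting, strand setting and annotation release are not stated in these notes. No pair of libraries of 1 diet agreed within sampling noise (chi-square per degree of freedom 8.20 to 141).

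The deposited counts were tested with edgeR 4.0.16 (R 4.3.3): TMM scaling, filterByExpr, robust quasi-likelihood fits with terms for diet and name form, or their interaction, and Benjamini-Hochberg adjustment over 14321 genes at 0.05. SE was obtained by dividing the size of the log2 fold change by √F. Identifiers, positions and lengths came from GENCODE M21, which matched 98.6% of symbols. Likeness used log2 CPM with a prior count of 1 and genes averaging at least 1 log2 CPM; correlations used 1e+05 permutations. Scripts were tested on simulated data.

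The members, gene lists and alternatives were chosen with earlier results of these data known. The text names the 10 reductases, every measured gene of the NRF2 regulator list, up to 4 genes per other list with the lowest p past the threshold, the 8 genes most like Cbr3 (predicted genes left out) and a few markers. Of the genes this rule chose, 1 is left out. Further genes of the lists were named after their values were seen. Alternatives covered model terms, subsets, scalings, filters, DESeq2 1.42.0, limma 3.58.1 voom, a non-epithelial marker score, transcript length, sex and leaving out each library.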

Additional observations from a re-analysis of the deposited data

Results flagged for a closer look

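Nqo2 was at 49.9 CPM in fish oil/pectin library 7, farther from the other 6 than the spread of 7 samples allows: the gap to the next library was 0.74 of the whole range, above the critical value of 0.568. It was the 1 value of this kind among 20 groups checked, and chance gives about 1 in 20. The same library had 0.631 CPM of Hoxd13; whether the values are linked was not tested.

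The diet difference was not the same in both name forms for 8 of 53 named genes by the edgeR interaction test at adjusted p under 0.05, against 8.41% of all genes. Among the reductases these were Cbr1, with a difference of 0.496 in log2 fold change (GC prefix minus none), and Akr1a1, with 0.397. Blvrb had 0.58, Gstp1 0.531, Pgls 0.529, Sqstm1 0.42 and Akr1c12 0.417, each with the higher value in prefixed libraries. Bach1 had -0.577, lower in prefixed libraries and near 0 in the others. Marker sums of T and NK cells (lower with fish oil/pectin) and of epithelium (higher) also differed by diet in prefixed libraries alone. Some other marker sums were separate by diet in unprefixed libraries. Absorptive colonocyte sums there were at 11900 to 13330 CPM with corn oil/cellulose and 10040 to 10400 CPM with fish oil/pectin. Stem and progenitor sums were at 627.5 to 811.1 and 884.4 to 932.6 CPM, and proximal colon sums at 655.8 to 934.7 and 1023 to 1312 CPM. The part of cell type or colon region in the differences was not tested.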

How the results depend on the processing

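Diet values of the 10 reductases were recomputed in 36 other ways, giving 360 values. Of these 324 kept their direction and side of the threshold, 20 kept the direction and did not pass, 2 (Akr1c19) newly passed and 14, of Cbr4 and Akr1c19, changed sign around 0. Reductases called fell from 7 to 2 in libraries without the GC prefix alone, 4 in male libraries and 1 with the non-epithelial score; over all genes, 5979 calls became 900, 1458 and 3 (3440 at an unadjusted p under 0.05). All-gene calls were 2250 in the lower series of library numbers alone, 3589 at adjusted p under 0.01 and 3496 with a replicate block. Same-numbered libraries did not pair (r from -0.07 to 0.46, 1 of 7 closest to its own number). The block kept 5 of the 7 reductase calls. Higher calls were 2247 and lower 3779 with total count scaling, and 3230 and 1561 with the length trend removed, against 3103 and 2876.

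Signs that changed are log2 values. Cbr4 was at 0.01476 with no form term, 0.01193 with the prefix alone, 0.005671 with voom, 0.1074 with the length trend removed and 0.1041 in females, and -0.04913 to 0.03104 leaving out 1 library. Akr1c19 was at 0.07008 with the prefix alone, 0.03863 with the length trend removed and 0.25 in females, and -0.1281 to 0.009904 leaving out 1 library. Without the prefix alone Bach1 was at 0.08857, Sqstm1 at -0.1773 and Nfe2l3 at -0.1801. With the non-epithelial score Sqstm1 was at -0.08221 and Nfe2l3 at -0.1328, and Sqstm1 was at -0.07786 in males. With the length trend removed Btrc was at 0.2587 and Cul3 at 0.005137.

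The interaction called 1204 genes, and 2122 by voom; leaving out 1 library gave 6 to 1763 genes and 0 to 2 reductases, with 6 genes without fish oil/pectin library 2, 261 without library 1 and 350 without corn oil/cellulose library 3. Total count scaling called 0 reductases and 9.27% of all genes. The name form difference called 5799 genes, and 2955 (21.2% of all genes) in corn oil/cellulose alone with 1 reductase. With the length trend removed 5 reductases passed, beside 32.5% of all genes. Leaving out 1 library gave 1 to 3 reductases, beside 29.4% to 42.6% of all genes. Without unprefixed fish oil/pectin library 1 or 2 it was 1 reductase, beside 29.7% and 29.4%. Its sign changed for Akr1b8 (-0.008673) and Akr1c19 (-0.001215) in corn oil/cellulose alone, Nqo2 (0.03446) in that lower number series, Cbr2 (-0.03047) and Akr1b8 (-0.09147) with the length trend removed, and ran from -0.05291 to 0.0073 for Nqo2 leaving out 1 library. The causes of these changes were not tested. Female, male and libraries 6 and 7 alternatives were added after seeing the data. Without fish oil/pectin libraries 6 and 7 all 7 diet calls stayed, beside 30.4% of all genes. With 153 to 287 reads in its lower diet, Cbr2 had the fewest reads beside Cbr3.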

Other observations

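Aifm2, Por and Cyb5r1, of the carbonyl and ketone reductase list, were chosen after their values were seen and do not stand for the list, in which Ptgr1 and Cyb5r3 were higher with fish oil/pectin. Aifm2, the ubiquinone reductase known as FSP1, averaged 18.1 ± 0.958 CPM (SD, n = 9) and 17.9 ± 2.57 CPM (SD, n = 7), and Por, the cytochrome P450 reductase, 156 ± 15.2 and 168 ± 24.8 CPM. Their log2 fold changes of -0.04 ± 0.08 and 0.06 ± 0.07 did not pass by edgeR (adjusted p = 0.708 and 0.518). Cyb5r1, a cytochrome b5 reductase, was at 0.17 ± 0.08 (edgeR adjusted p = 0.0956).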
